A study of Mus with 12 samples.

Results

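The genes described here are 6 keratins of simple epithelia, Krt7, Krt8, Krt18, Krt19, Krt20 and Krt23, together with Vim, which encodes vimentin. They were found by their gene symbol in the annotation of the array, which gave 1 probe set for each of the 7 genes, out of 19505 genes measured. RNA from the kidneys of 12 male mice, 6 months old, had been hybridised to mouse Clariom S arrays, with 1 array per mouse. Wild type C57Bl/6j mice were bought from a supplier, and mice with a homozygous loss of Apobec1 (Apobec1 KO), on a C57Bl/6j background, were bred in house, so genotype and place of breeding cannot be told apart. Mice of each genotype received either saline or cisplatin at 15 mg/kg, a platinum drug that injures the kidney tubule, and the labels give 3 days. This makes 4 groups of 3 arrays, the saline groups WT control and KO control and the cisplatin groups WT AKI and KO AKI. AKI is acute kidney injury, which the labels call severe in the KO AKI mice. The knockout is not restricted to a cell type, and whole kidney was measured.

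Keratins and vimentin are the subunits of intermediate filaments, the rope-like part of the cytoskeleton that gives cells mechanical strength. A keratin filament is built from pairs of an acidic type I keratin (Krt18, Krt19, Krt20 and Krt23 here) and a basic type II keratin (Krt7 and Krt8), with Krt8 and Krt18 as the usual partners in simple epithelia. Vimentin is a type III protein that forms filaments by itself, mainly in mesenchymal, endothelial and blood cells. In the kidney, Krt7, Krt8, Krt18 and Krt19 are known from collecting duct and other distal tubules and from the lining of the pelvis, Krt20 from the surface cells of the urothelium, and vimentin from podocytes, stroma and vessels. Injured tubule cells of rodents are known to take up keratins and vimentin.

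The values are log2 signals, so a difference of 1 is a doubling. Background on each array was the 95th percentile of 23 probe sets that match no mouse transcript and lay between 6.15 and 6.52. Of all genes, 7432 were above background on all 12 arrays and 9036 on none, and all 10 proximal tubule markers were above it on all arrays. Apobec1 did not check the labels: its signals were 6.63 to 7.33 in WT control and 7.50 to 7.66 in KO control (log2 difference 0.54, adjusted p = 0.946 from limma), and KO below means the arrays labelled KO. KO AKI replicate 2 stood apart from the other arrays of its group, with 2398 genes more than 2-fold from their mean, and results that rest on it are also given without it. Between saline and cisplatin in WT mice, 1684 genes rose and 1042 fell, a split that turned to 1097 and 1731 when each array was centred on its median. The tests were limma fits over all genes with Benjamini-Hochberg adjustment, and a gene is said to rise or fall at an adjusted p under 0.05. KO AKI against WT AKI shares its arrays with both comparisons of cisplatin with saline.

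In WT kidneys 5 of the 7 genes rose after cisplatin and 0 fell, where 8.63% of all genes rose. The 5 were Krt7, Krt8, Krt18, Krt20 and Vim. In 6 of the 7 every WT AKI array lay above every WT control array, which 22.2% of all genes did. In KO kidneys the same 5 genes and Krt19 rose, 6 of 7 with 0 falling, where 15.4% of all genes rose. In these 6 genes every KO AKI array lay above every KO control array, against 22.8% of all genes. The median log2 difference over the 7 genes was 1.44 in WT and 2.75 in KO (2.04 without KO AKI replicate 2), beside medians of 0.06 in both for all genes. With genes below background in the saline group set at their lower bound, the medians over the 7 were 1.44 and 2.43. None of the genes was called between KO AKI and WT AKI, between the control groups or in the interaction. In whole kidney, more cells of a type and more RNA in each cell cannot be told apart.

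**Figure D1:**
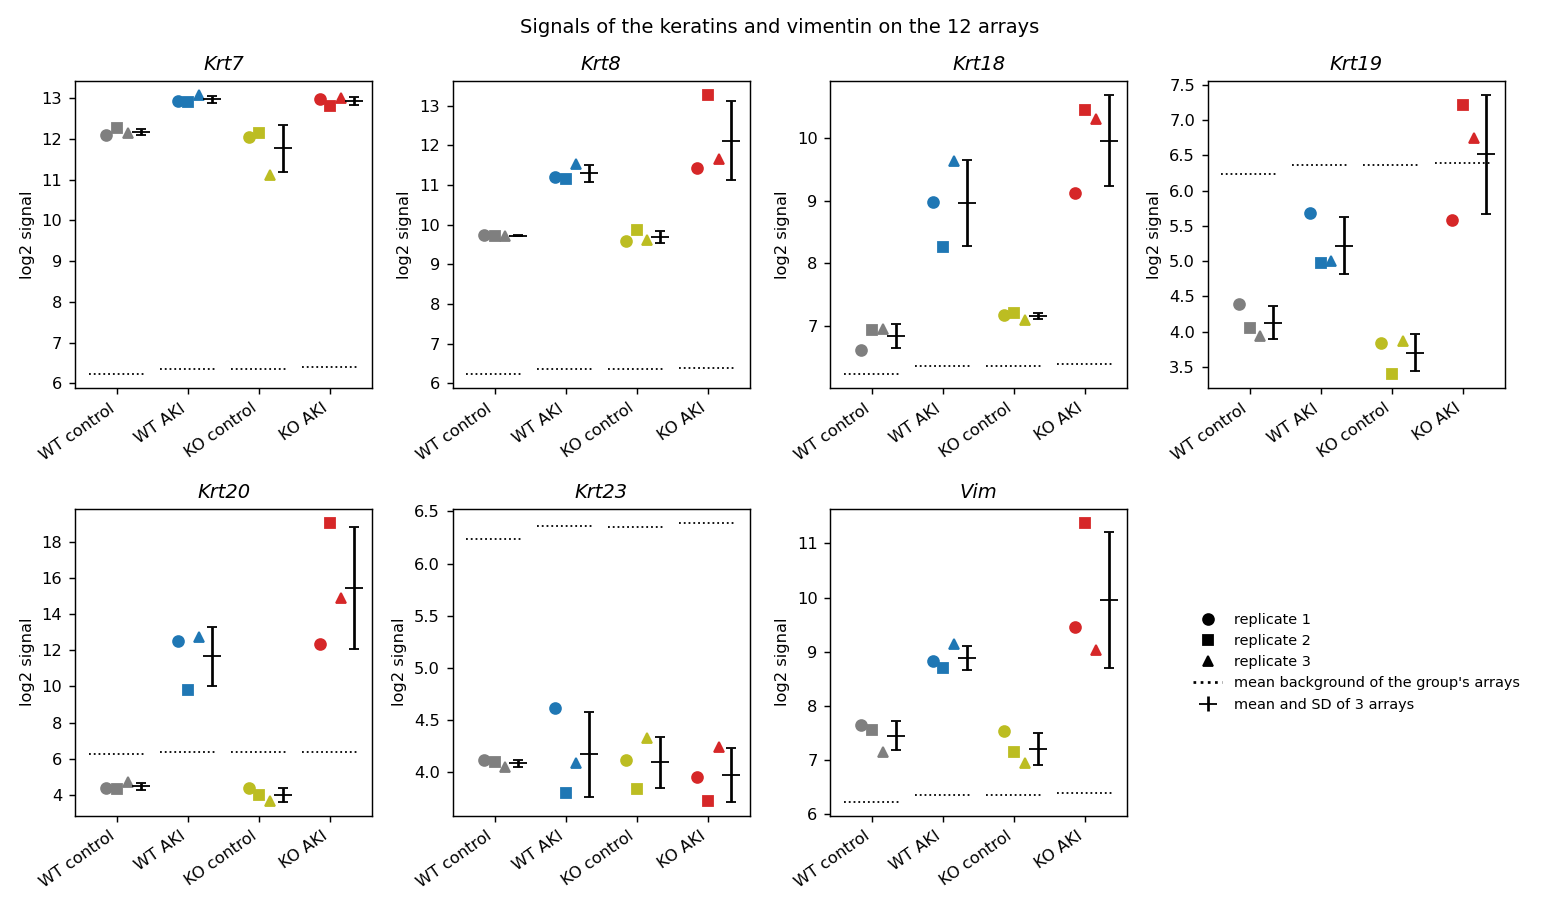
Log2 signals of the 6 keratins and Vim, one panel for each gene, on 3 arrays in each of the 4 groups. Marks show replicates 1 to 3, the bar shows the mean and SD, and the dotted line is the mean background of the arrays of the group. Krt20 went from under background to between 9.79 and 19.05 on the cisplatin arrays, and Krt23 stayed under background on all 12.

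Krt7, a type II keratin of ducts and urothelium, was the least spread of the 7 genes after cisplatin. Its log2 signals were 12.10, 12.27 and 12.15 in WT control and 12.94, 12.91 and 13.08 in WT AKI. In KO control they were 12.06, 12.15 and 11.11, and in KO AKI 12.97, 12.82 and 13.02. All 6 cisplatin arrays lay within a narrow band above all 6 saline arrays, and KO control replicate 3 was the lowest of the saline arrays. Krt7 rose 1.74-fold in WT (log2 difference 0.80, standard error 0.24, adjusted p = 0.0435 from limma). In KO it rose 2.24-fold (1.16, standard error 0.24, adjusted p = 0.00354 from limma), and the log2 difference was 0.83 without KO control replicate 3. The call in WT was lost on leaving out any of the 6 WT arrays, KO control replicate 1 or KO AKI replicate 3 (adjusted p from 0.0503 to 0.121 from limma).

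Krt8, the type II partner of Krt18 and the keratin of nearly all simple epithelia, was even in the saline groups. The log2 signals were 9.73, 9.71 and 9.72 in WT control and 11.21, 11.14 and 11.53 in WT AKI. They were 9.59, 9.86 and 9.61 in KO control and 11.43, 13.27 and 11.66 in KO AKI. Saline and cisplatin arrays did not overlap in either genotype, and KO AKI replicate 2 lay far above the other cisplatin arrays. Krt8 rose 2.98-fold in WT (1.57, standard error 0.36, adjusted p = 0.0118 from limma) and kept its call under all 21 settings tried. In KO it rose 5.39-fold (2.43, standard error 0.36, adjusted p = 0.000345 from limma), with a log2 difference of 1.86 without KO AKI replicate 2.

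Krt18, the type I partner of Krt8, was little above background after saline. Its log2 signals were 6.61, 6.94 and 6.95 in WT control and 8.98, 8.26 and 9.63 in WT AKI. In KO control they were 7.17, 7.20 and 7.10, and in KO AKI 9.12, 10.45 and 10.30. The saline and cisplatin arrays were again apart in both genotypes, and the cisplatin arrays spread over more than a doubling within each genotype. Krt18 rose 4.35-fold in WT (2.12, standard error 0.36, adjusted p = 0.00226 from limma) and 6.96-fold in KO (2.80, standard error 0.36, adjusted p = 0.000115 from limma). All 3 KO control arrays lay above the 3 WT control arrays, with a log2 difference of 0.32 that was not called (adjusted p = 0.966 from limma).

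As Krt8 and Krt18 pair in filaments, their changes were set side by side on each array. The log2 change of Krt18 from the control mean of its genotype, minus that of Krt8, was 0.66, 0.00 and 0.98 in WT AKI and 0.22, -0.29 and 1.18 in KO AKI. The SD of the same difference on the saline arrays was 0.20 in WT and 0.12 in KO. Krt18 thus changed by more than Krt8 on 4 of the 6 arrays, by as much on WT AKI replicate 2 and by less on KO AKI replicate 2, and the 2 genotypes overlapped. The 2 genes are next to each other in the RefSeq mouse annotation (GRCm38.p6). The closest genes beyond them, Krt78 and Krt79 on the side of Krt8 and Eif4b and Tns2 on that of Krt18, were not called after cisplatin in either genotype (adjusted p from 0.0958 to 0.828 from limma).

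Krt19, the smallest type I keratin, was mostly below background. The log2 signals were 4.39, 4.05 and 3.94 in WT control and 5.68, 4.98 and 4.999 in WT AKI, all below background. In KO control they were 3.84, 3.40 and 3.86, and in KO AKI 5.58, 7.21 and 6.75, of which only replicates 2 and 3 were above background. The groups did not overlap within either genotype, but the WT AKI arrays were not measured above background and no fold is given for them. The log2 difference in WT was 1.09 (standard error 0.35, adjusted p = 0.0527 from limma). It passed on leaving out KO AKI replicate 1 (adjusted p = 0.0105 from limma) or replicate 2 (0.0161). In KO, Krt19 rose at least 1.12-fold against the background of the KO control arrays (fitted log2 difference 2.81, standard error 0.35, adjusted p = 9.29e-05 from limma). Without KO AKI replicate 2 the KO AKI mean was 6.16, below that background of 6.35, and no fold above it remains. Krt15, Krt13, Krt9 and Krt14, the neighbours of Krt19 in the annotation, were above background on none of the 12 arrays.

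Krt20, a type I keratin of urothelial surface cells and the gut, had the largest differences of the 7 genes after cisplatin. Its log2 signals were 4.36, 4.33 and 4.70 in WT control and 12.51, 9.79 and 12.72 in WT AKI. They were 4.37, 3.97 and 3.63 in KO control and 12.34, 19.05 and 14.89 in KO AKI. All 6 saline arrays were below background and all 6 cisplatin arrays far above it, and WT AKI replicate 2 was the lowest and KO AKI replicate 2 the highest of these. Krt20 rose at least 43.4-fold in WT (fitted log2 difference 7.21, standard error 1.20, adjusted p = 0.00215 from limma). In KO it rose at least 538-fold (fitted log2 difference 11.43, standard error 1.20, adjusted p = 2.40e-05 from limma). The fitted log2 difference in WT was 8.15 without WT AKI replicate 2, and in KO it was 9.62 without KO AKI replicate 2 (at least 153-fold) and 12.98 without replicate 1. Krt23 and Krt12, the neighbours of Krt20 in the annotation, were below background on all arrays.

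Krt23, a type I keratin known from injured liver and gut, gave no signal above background. Its log2 signals were 4.11, 4.10 and 4.05 in WT control, 4.62, 3.81 and 4.09 in WT AKI, 4.12, 3.84 and 4.33 in KO control and 3.95, 3.73 and 4.24 in KO AKI. All 4 groups overlapped, and Krt23 was not called in any comparison (adjusted p from 0.728 to 0.998 from limma). At this signal a change of Krt23 below background could not have been measured.

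Vim was above background on all arrays. The log2 signals were 7.65, 7.56 and 7.15 in WT control and 8.83, 8.70 and 9.14 in WT AKI. In KO control they were 7.53, 7.14 and 6.95, and in KO AKI 9.46, 11.38 and 9.03. The cisplatin arrays lay above the saline arrays in both genotypes, and KO AKI replicate 2 was again the highest array. Vim rose 2.71-fold in WT (1.44, standard error 0.45, adjusted p = 0.0474 from limma). In KO it rose 6.73-fold (2.75, standard error 0.45, adjusted p = 0.000659 from limma), with a log2 difference of 2.04 without KO AKI replicate 2. The call in WT was lost on leaving out any of the 6 WT arrays or any KO control array (adjusted p from 0.0607 to 0.141 from limma). Of the genes next to Vim in the annotation, Trdmt1, an RNA methyltransferase, did not pass in WT (log2 difference -0.31, adjusted p = 0.444 from limma) and fell in KO (-0.94, adjusted p = 0.015 from limma), and St8sia6 was not called in either genotype. The genes one further out were Cubn, which fell in KO (-1.59, adjusted p = 0.0448), and Hacd1, which rose in KO (1.38, adjusted p = 0.000327).

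**Figure D2:**
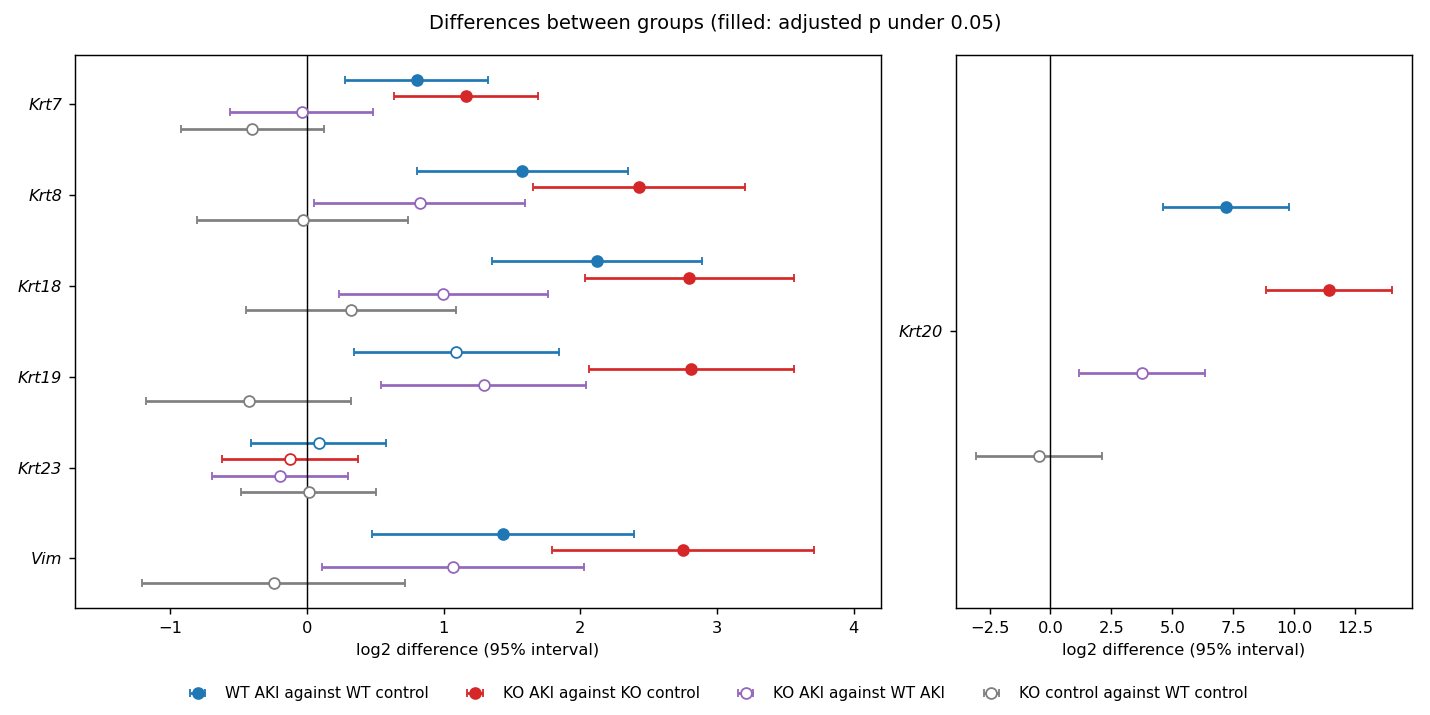
Log2 differences between groups with 95% intervals from limma, for 6 genes on the left and Krt20, on a wider scale, on the right. Filled points have an adjusted p under 0.05. Both cisplatin comparisons are filled for Krt7, Krt8, Krt18, Krt20 and Vim, only the KO one for Krt19, and the points that compare genotypes are open for all 7 genes. For Krt19 and Krt20 the fitted differences reach below background.

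Between the AKI groups, 0 of the 7 genes were called by limma, where 0.487% of all genes were. In the same test 5 of the 7 had an unadjusted p under 0.05. By p these 5 ranked from 462 (Krt19) to 2542 (Krt8) among all genes. At least 2542 of all genes thus passed this cut, so passing it does not set the 5 apart. Krt8, Krt18, Krt19, Krt20 and Vim were higher on average in KO AKI. In each of them 2 of the 3 KO AKI arrays lay above the highest WT AKI array. The remaining KO AKI array lay within the WT AKI range. How many of all genes had this pattern was not counted, so it is not known whether it is unusual. In 0 of the 7 did all KO AKI arrays lie above all WT AKI arrays, which 8.42% of all genes did. For Krt20 the log2 difference was 3.76 (95% interval 1.18 to 6.33, adjusted p = 0.151 from limma), and for Krt19 it was 1.29 (0.54 to 2.04, adjusted p = 0.103 from limma). Krt18 differed by 0.998 (0.23 to 1.76, adjusted p = 0.192 from limma), Krt8 by 0.82 (0.05 to 1.60, adjusted p = 0.294 from limma) and Vim by 1.07 (0.11 to 2.03, adjusted p = 0.272 from limma). Krt7 had nearly the same mean in both groups, with a log2 difference of -0.04 (-0.56 to 0.49, adjusted p = 0.969 from limma).

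The calls and, for some genes, the size of these differences depended on single KO AKI arrays. Without KO AKI replicate 1, 3 genes were called, Krt18 (1.42, adjusted p = 0.0177 from limma), Krt19 (1.76, adjusted p = 0.00292) and Krt20 (5.30, adjusted p = 0.00702). That fit called 1174 of all 19505 genes, beside 95 with all arrays. Without KO AKI replicate 2, 0 of the 7 were called, where 121 of all genes were. The log2 differences were then 0.25 for Krt8, 0.36 for Vim and 1.94 for Krt20. With the array left in, KO AKI replicate 2 lay above the mean of the other 2 arrays of its group by 5.44 for Krt20, 2.14 for Vim, 1.72 for Krt8, 1.05 for Krt19 and 0.74 for Krt18 on the log2 scale. It lay below that mean by a difference of -0.18 for Krt7 and -0.37 for Krt23. Of all genes, 9 exceeded the mean by more than Krt20 did on this array. On the same array the median of the 10 proximal tubule markers was below that of the other 2 (log2 difference -3.42, with 0 of 10 higher). The log2 difference was -1.26 for the 8 collecting duct markers (0 of 8 higher) and -1.17 for the 7 macrophage markers (0 of 7 higher). For the 6 neutrophil markers it was 0.94 (5 of 6 higher), but 4 of these 6 were above background on no array. The part of these in the keratin and vimentin values was not tested.

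**Figure D3:**
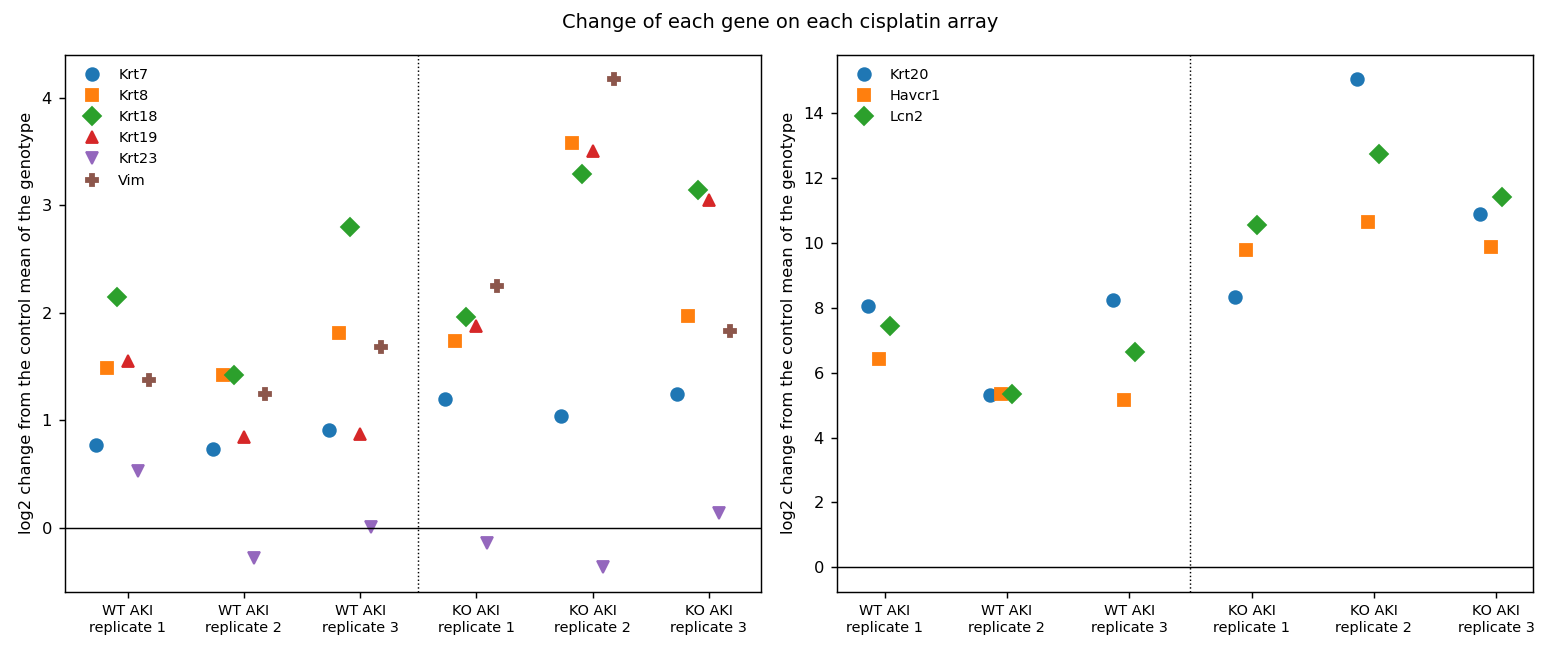
Log2 change of each gene on each cisplatin array from the mean of the 3 saline arrays of its genotype, with Krt7, Krt8, Krt18, Krt19, Krt23 and Vim on the left and Krt20 beside the tubule injury genes Havcr1 and Lcn2 on the right. KO AKI replicate 2 has the highest Krt8, Krt18, Krt19, Krt20 and Vim, while Krt7 lies between 0.73 and 1.25 on all 6 arrays. Changes of Krt19 and Krt20 are measured from saline signals below background.

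Without cisplatin, Krt19, Krt20 and Krt23 were below background in both genotypes, so a difference between the genotypes could not be measured for them. Between the control groups 0 of 7 were called by limma, where 0.0513% of all genes were, and 0 had an unadjusted p under 0.05. The log2 differences of KO control from WT control ran from -0.47 for Krt20, below background in both groups, to 0.32 for Krt18. That of Krt7 was -0.40 (95% interval -0.92 to 0.13, adjusted p = 0.894 from limma), and that of Krt8 was -0.03 (-0.80 to 0.74, adjusted p = 0.998 from limma). The cisplatin response of KO minus that of WT, the interaction, was also called in 0 of the 7 genes by limma, where 0.0308% of all genes were called, and 2 had an unadjusted p under 0.05. These were Krt19 (1.72, adjusted p = 0.265) and Krt20 (4.23, adjusted p = 0.415), both measured from saline signals below background. By p they ranked 276 and 1217 among the 19505 genes, so at least 1217 of all genes had an unadjusted p under 0.05. Without KO AKI replicate 1 both were called (adjusted p = 0.0106 and 0.0423 from limma), in a fit that called 337 of all 19505 genes.

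To show how alike the genes moved, signals were centred on the mean of the gene over the 12 arrays and compared by the root mean square of the differences, a description without a test over arrays that also share group and treatment. Among the 7 genes Krt8 and Vim were closest (0.28), followed by Krt8 and Krt19 (0.44) and Krt8 and Krt18 (0.46). The log2 change of Vim minus that of Krt8 was -0.11, -0.18 and -0.13 in WT AKI and 0.51, 0.60 and -0.14 in KO AKI. Over all genes, the closest to Krt8 were Rtn4, a protein of the endoplasmic reticulum (0.14), Serpina7, which carries thyroid hormone in plasma (0.16) and was above background on 1 of the 12 arrays, and Lsr, a receptor at tricellular junctions of epithelia (0.19). Lsr was also the closest to Vim (0.21), followed by Klf5, a transcription factor of epithelia (0.23), and Sele, an adhesion receptor of endothelium (0.24), above background on 1 of the 12 arrays. Closest to Krt18 were Abcc4, an efflux pump, Net1 and Acsl4, a fatty acyl-CoA ligase (0.29 to 0.30). Closest to Krt19 were Zmat3, Card19 and Abcc3 (0.28 to 0.29), of which Zmat3 is a p53 target. Krt19 itself was above background on 2 of the 12 arrays, and Card19 and Abcc3 on none of the saline arrays.

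Krt20 moved on a larger scale than the other genes. Lcn2, which encodes the injury protein NGAL, was closest to it (1.08), followed by Cdkn1a, the cell cycle inhibitor p21 (1.62), and Havcr1, which encodes KIM-1 (1.85), where Krt20 itself spread over 5.09 around its mean. These distances are larger than those of the other keratins, but so is the spread of Krt20. For Krt7 the closest genes, Sox11, Il25 and Socs3 (0.19), were above background on 5, 0 and 0 of the 12 arrays, so no measured level stands behind most of their values, and Krt7 itself spread by 0.57.

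The rest of the keratin family did not show such signals. Of 43 other keratins measured, 41 were above background on none of the 12 arrays and 0 on all of them. In WT 4 of the 43 rose and 0 fell, where 8.63% of all genes rose and 5.34% fell. In KO 2 rose and 4 fell, where 15.4% rose and 12.6% fell. These shares are the ones to set beside the counts with all arrays in the lists that follow. Counts without KO AKI replicate 2 come from a fit with other totals. Over all genes that fit called 2384 as rising in WT, with 1656 falling, beside 1684 and 1042 with all arrays. For KO it called 2485 as rising, with 1975 falling. The log2 differences in WT are the same in both fits, as no WT array was left out. The medians of the log2 differences of the 43 were 0.17 in WT and 0.13 in KO, beside 0.06 for all genes. Among those called, Krt32, a hair keratin, stayed below background in all groups (mean log2 signals 3.47 in WT control and 4.77 in WT AKI), and Krt10, a keratin of skin, fell in KO from 6.29 to 5.43, near or below background. No fold is given for these. Leaving out KO AKI replicate 2 gave 2 that rose and 3 that fell in KO.

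Of 15 other intermediate filament genes, which include lamins and neurofilaments, 12 were above background on none of the arrays. In WT 3 rose and 0 fell, and in KO 5 rose and 0 fell (1 rose without KO AKI replicate 2). Lmna, which encodes lamins A and C of the nuclear envelope, was the one gene of the list above background on all arrays. It gave 8.54, 8.58 and 8.42 in WT control, 10.06, 9.77 and 9.64 in WT AKI, 8.13, 8.48 and 7.76 in KO control and 9.45, 10.78 and 9.89 in KO AKI. No cisplatin array overlapped a saline array of its genotype. Lmna rose 2.47-fold in WT (adjusted p = 0.0113 from limma, and 0.0505 without WT AKI replicate 1) and 3.78-fold in KO (adjusted p = 0.00046 from limma).

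Keratin filaments are anchored at desmosomes by plakins and plakophilins, of which 15 of 18 listed genes were measured. In WT 2 rose and 0 fell, and in KO 2 rose and 3 fell, with median log2 differences of 0.05 and 0.07. Dsp, the plakin desmoplakin that ties keratins to the desmosome, gave 7.54, 7.48 and 7.76 in WT control, 7.80, 7.63 and 7.66 in WT AKI, 7.72, 7.55 and 7.46 in KO control and 8.47, 8.85 and 8.73 in KO AKI. Only the KO AKI arrays stood above the rest. The log2 difference was 0.10 in WT (adjusted p = 0.743 from limma, and -0.05 with median centring), and in KO Dsp rose 2.16-fold (1.11, adjusted p = 0.000678 from limma). It was 1.98-fold higher in KO AKI than in WT AKI (adjusted p = 0.0335 from limma), a call that was lost on leaving out any array other than KO control replicate 3 and KO AKI replicate 1 (adjusted p up to 0.19), while the log2 difference stayed between 0.91 and 1.10. The interaction was not called for Dsp (1.01, adjusted p = 0.227 from limma).

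Pkp2, a plakophilin of simple epithelia, rose 1.69-fold in WT (log2 difference 0.75, adjusted p = 0.0121 from limma) and 2.24-fold in KO (1.16, adjusted p = 0.000358 from limma). Its saline signals were little above background in WT control, and only 1 of the 3 KO control arrays was above it. Dst, a plakin that links keratins to hemidesmosomes, moved the other way. It fell in KO, from a mean of 10.06 to 8.82 (log2 difference -1.24, adjusted p = 0.00206 from limma), and its log2 difference in WT was -0.73 (adjusted p = 0.0562 from limma, and as low as 0.0257 on leaving out any one of the KO AKI arrays). Pkp4 had a log2 difference of -0.38 in WT (adjusted p = 0.275) and fell in KO (-0.93, adjusted p = 0.00814 from limma). Of 6 genes of epithelial adhesion, all above background on all arrays, 1 rose and 1 fell in WT, and 2 rose and 1 fell in KO (1 rose and 1 fell without KO AKI replicate 2). Tjp1, the tight junction protein ZO-1, rose 1.76-fold in WT (adjusted p = 0.00721 from limma) and 1.44-fold in KO (adjusted p = 0.0324 from limma, 0.107 at the highest on leaving out an array, with the call lost without any KO control array, KO AKI replicate 2 or KO AKI replicate 3, and also with median centring, adjusted p = 0.0945). Cdh16, the cadherin of kidney tubules, fell in WT (log2 difference -0.80) and in KO (-1.11, adjusted p = 0.00418 from limma). The WT call was kept on leaving out 5 of the 12 arrays in turn (adjusted p from 0.00837 to 0.104 from limma). It was lost with quantile normalization (adjusted p = 0.107 from limma).

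**Figure D4:**
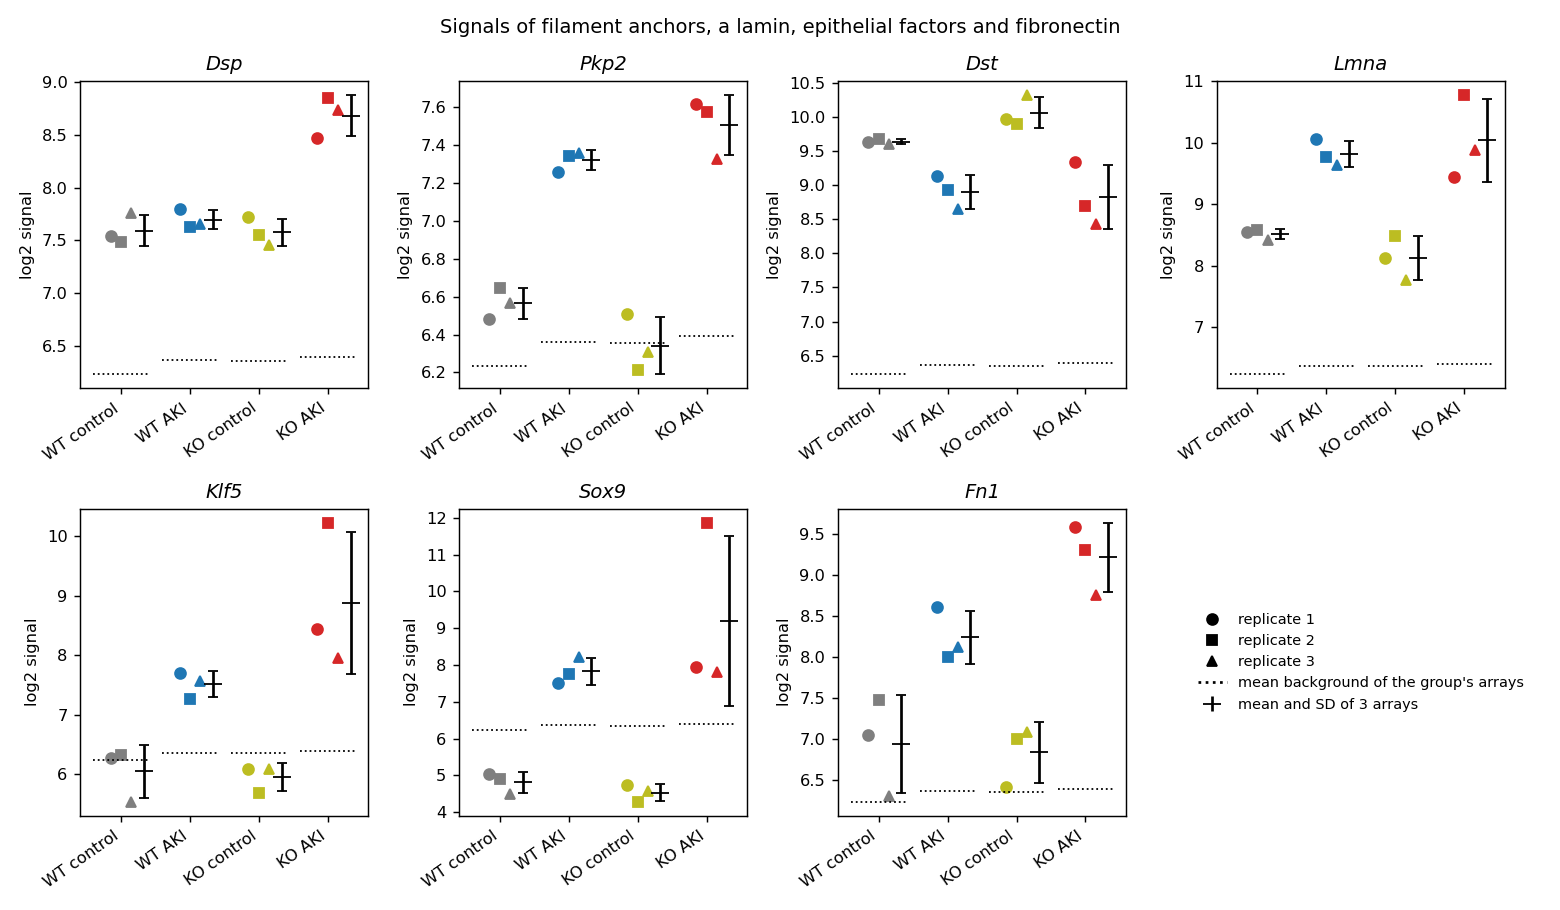
Log2 signals of the filament anchors Dsp, Pkp2 and Dst, of Lmna, of the epithelial transcription factors Klf5 and Sox9 and of Fn1 on the 12 arrays, with the marks, bars and dotted background lines of the plot of the keratin signals. Dsp lies between 8.47 and 8.85 on the KO AKI arrays, above all others, the highest of which is at 7.80.

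Among 12 measured transcription factors known from epithelia, 4 rose and 1 fell in WT and 6 rose and 2 fell in KO, with median log2 differences of 0.30 and 0.73. Sox9, known from repairing tubules, was below background in both saline groups and rose at least to a log2 difference of 1.60 in WT (adjusted p = 0.019 from limma, up to 0.0662 on leaving out an array) and 2.85 in KO (adjusted p = 0.000648 from limma), where the bound was 1.52 without KO AKI replicate 2. The WT call of Sox9 was lost without any WT control array, WT AKI replicate 2 or WT AKI replicate 3. Klf5, which was close to Vim in its pattern, was little above background on 2 of the 3 WT control arrays (6.27 and 6.33). It was above background on 0 of the KO control arrays. After cisplatin it gave 7.70, 7.27 and 7.57 in WT AKI and 8.44, 10.23 and 7.96 in KO AKI. All 3 KO AKI arrays of Klf5 lay above those of WT AKI, with a log2 difference of 1.36 that was not called (adjusted p = 0.158 from limma) and was 0.69 without KO AKI replicate 2.

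Vim is also a gene of mesenchymal cells, so other genes of that kind were set beside it. Of 10 measured mesenchymal genes, 1 rose in each genotype and 0 fell (2 rose in each without KO AKI replicate 2), and 5 were above background on none of the arrays. The median log2 difference was 0.34 in WT and 0.11 in KO. The gene that rose was Fn1, which encodes fibronectin of the extracellular matrix, by 2.46-fold in WT (adjusted p = 0.0166 from limma, and up to 0.0732 without WT control replicate 3 or WT AKI replicate 1) and by 5.21-fold in KO (adjusted p = 0.000163 from limma).

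Markers of kidney cell types were measured on the same arrays. Of 10 proximal tubule genes, 0 rose in either genotype, 0 fell in WT (3 without KO AKI replicate 2) and 8 fell in KO, with median log2 differences of -0.50 in WT and -2.88 in KO (-1.55 without KO AKI replicate 2). Their summed signals ran from 20.90 to 20.99 in WT control, 20.46 to 20.67 in WT AKI, 21.00 to 21.05 in KO control and 18.25 to 20.19 in KO AKI. The part of the proximal tubule fall in the keratin and vimentin values was not tested. The next lists are of cell types that carry keratins in healthy kidney. Of 7 urothelium genes, 5 were above background on none of the arrays and 0 of 7 were above it on any cisplatin array, and 2 fell in WT and 4 in KO. The log2 of their summed signals ran from 8.05 to 8.17 in WT control and 7.33 to 8.04 in WT AKI, and from 7.88 to 8.26 in KO control and 7.42 to 7.53 in KO AKI. Of 8 collecting duct genes, 0 rose, and 2 fell in WT (6 without KO AKI replicate 2) and 5 in KO. Their summed signals ran from 13.89 to 14.39 in WT control, 12.42 to 13.05 in WT AKI, 13.51 to 14.57 in KO control and 11.46 to 13.74 in KO AKI. On these arrays Krt7, Krt8, Krt18 and Krt20 rose in both genotypes, and 0 genes of either list rose. The 2 urothelium genes that fell in WT, Upk2 and Upk3a, were below background on all arrays. The part of collecting duct and urothelium in the keratin signals was not tested beyond these values.

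The cell types known for vimentin gave mixed values. Of 6 fibroblast genes, 1 rose in WT and 3 in KO, and the summed signals were 13.33 to 13.89 in WT control, 13.16 to 13.49 in WT AKI, 12.29 to 13.44 in KO control and 13.08 to 13.87 in KO AKI. Of 7 endothelial genes, 0 rose in either genotype and 5 fell in KO, where the summed signals were 13.57 to 13.95 in KO control and 12.12 to 12.43 in KO AKI. In WT control they were 12.46 to 13.32 and in WT AKI 12.16 to 12.43, and all 7 genes had a higher mean in KO control than in WT control (median log2 difference 1.05). The summed signals of 5 podocyte genes lay between 10.25 and 10.89 on all arrays. Of 7 macrophage genes, 4 rose in KO, with summed signals of 10.07 to 10.81 in KO control and 10.96 to 12.75 in KO AKI, beside 10.37 to 10.59 in WT control and 10.46 to 11.45 in WT AKI. Without KO AKI replicate 2, 3 of the macrophage genes and 2 of the fibroblast genes rose in WT. Of 6 neutrophil genes, 1 rose in WT and 3 in KO, and 0 were above background on any array outside KO AKI (2 rose in each genotype and 1 fell in KO without KO AKI replicate 2). The part of fibroblasts, macrophages and neutrophils in the vimentin signal was not tested.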

How the data were processed

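The values are the log2 signals that the authors deposited for each probe set. The submitters' processing notes name Transcriptome Analysis Console, with no version. Background correction and normalization are not given in the sources used here, and the deposited log2 values were used as they stand. Of 28846 entries, 19572 probe sets with 1 gene symbol were kept, and each of 19505 genes was represented by its probe set of highest mean. A model of the 4 group means was fitted to all 12 arrays with lmFit and eBayes of limma 3.58.1 in R 4.3.3 (8 residual degrees of freedom), and p-values were adjusted over all genes. The fit was tested on simulated data. With 3 arrays against 3, an exact permutation test cannot go below p = 0.1 and was not used. The number of arrays limits the precision.

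Where a gene was above background on no array of a group, the fold is a lower bound (at least). It sets the other group's mean against the background level averaged over those arrays (or the signal of the gene, where higher). Summed signals are the log2 of the sum of linear signals over a list. The 7 genes and all gene lists were chosen with earlier results of these data known. All 7 genes are named. For each of them called in a comparison the 3 genes with the most similar centred signals were taken, without predicted genes, and of each list up to 4 called genes with the largest log2 difference and 1 that moved against the majority, of which the text prints some. Arrays were grouped by their labels, which give no batch. Alternatives were other scalings, array weights, a variance trend, fits of 2 groups, a background filter, all probe sets, the replicate block, an unpaired t-test (the methods' t-test, named in the paper for its measurements in general and not for the arrays), the thresholds the paper gives for array genes, and leaving out each array. List counts and lower bounds without KO AKI replicate 2 and the single arrays left out for genes outside the 7 were chosen after seeing the data.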

Additional observations from a re-analysis of the deposited data

How the results depend on the processing

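In WT AKI against WT control the count of called genes among the 7 went from 5 to 3 with median centring and with the replicate block, both times without Krt7 and Vim, and ran from 3 to 6 on leaving out 1 array. Vim was also lost with quantile normalization (adjusted p = 0.0616 from limma) and with the background filter (0.0531). Median centring moved the median of all genes by -0.15 in WT and -0.12 in KO on the log2 scale. In KO AKI against KO control the count was 6 with each alternative except the background filter, which removes Krt19 and Krt23 (5 called), and the methods' t-test after adjustment, which called 0. That test also called 0 in both comparisons of genotypes. In KO AKI against WT AKI it went from 0 to 2 (Krt19 and Krt20) at the paper's thresholds, and ran from 0 to 3 on leaving out 1 array. The thresholds are a fold over 2 and an unadjusted p under 0.01. Of all genes, 277 passed them with a higher and 327 with a lower mean in KO AKI. In the interaction, 271 of all genes passed them with a positive difference and 202 with a negative one. There the count among the 7 went from 0 to 1 (Krt19) at those thresholds, and ran from 0 to 2 on leaving out 1 array. Between the control groups it was 0 with every alternative. The cause was not tested.

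The signs that changed were of small differences that were not called. Krt23 in WT went from 0.09 to -0.0694 with quantile normalization and to -0.0629 with median centring, and from -0.137 to 0.268 on leaving out 1 array. Leaving out 1 array gave -0.381 to 0.0246 for Krt23 and -0.0808 to 0.0195 for Krt7 in KO AKI against WT AKI, and -0.392 to 0.0135 for Krt23 in the interaction. Between the control groups Krt23 was -0.0047 with median centring and -0.104 to 0.138 on leaving out 1 array, and Krt8 ran from -0.117 to 0.0164. Over all genes, 95 were called in KO AKI against WT AKI, 2 without WT AKI replicate 2 and 1174 when KO AKI replicate 1 was left out. The replicate numbers of the labels are not described as pairs. Of 18 pairs of arrays with the same number, 0 had a correlation of deviations over 0.1 (-0.11 to 0.09), and 3 of 12 arrays correlated best with their own number, so the replicate block is given as an alternative alone. Signals below background limit Krt19, Krt20 after saline and Krt23.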
